A study of Arabidopsis thaliana with 6 samples.

Results

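The genes described here are 39 core cell division genes of Arabidopsis thaliana. They are 5 A-type, 9 B-type and 5 D-type cyclins, 5 cyclin-dependent kinases (CDKs), 7 KRP inhibitors of CDKs, and 8 genes of the spindle checkpoint, mitotic exit and cytokinesis. They were taken from the table by a list of locus codes, and each of the 39 loci has 1 row among the 30237 rows of the deposited table. Expression was measured on AGRONOMICS1 whole-genome tiling arrays with RNA from leaf 3 dissected from Col-0 seedlings at 9 DAS, as the labels write the age. A line that overexpresses the transcription factor ERF6 (ERF6:IOE, 3 arrays) was set against a control line (GFP:IOE, 3 arrays). Seedlings of both lines were moved to 5 µM dexamethasone for 4 h before harvest, so the control carries the treatment too. The series has no arrays without dexamethasone.

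ERF6:IOE is 1 line, described in the series' design text as the strong one of its kind, and the labels do not say which promoter or cell types drive the introduced gene. Per that text, samples came from 3 independent experiments and several plates in each. ERF6 transcript itself was at 9.99, 9.97 and 10.4 on the ERF6:IOE arrays and at 6.89, 7.38 and 7.55 on the GFP:IOE arrays. All values named a level are deposited log2 expression values, and all values named a log2 fold are ERF6:IOE minus GFP:IOE. The leaf markers RBCS1A, LHCB2.1 and RCA, which encode photosynthesis proteins, had levels from 11.1 to 14.2 on the 6 arrays. Whole leaves were used, so fewer dividing cells and less transcript per dividing cell cannot be told apart in any value below.

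Cyclins are regulatory subunits that activate CDKs, and different cyclins act at different steps of the division cycle. D-type cyclins with CDKA promote the start of the cycle, while A-type and B-type cyclins with CDKA and the plant-specific B-type CDKs drive the later phases and mitosis. KRP proteins bind cyclin-CDK complexes and inhibit them. In a young Arabidopsis leaf, cells first divide throughout the blade and then leave mitosis from the tip downward, many of them entering rounds of DNA replication without division.

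None of the 39 genes passed the test between the lines, and most had slightly lower levels in ERF6:IOE. The test was limma over all 30237 rows with a Benjamini-Hochberg adjusted p threshold of 0.05. By this rule 0.698% of all rows were higher and 0.0265% lower in ERF6:IOE, so a count of 0 among 39 genes is near the background. A negative log2 fold was found for 33 of the 39 genes (84.6%), against 53.8% of all rows. The median log2 fold of the 39 was -0.15, which is 10.1% lower at the median, and the median of all rows was -0.02. Of the 39 genes, 38 lay above the median level of the table, and the rows above that median had the same median log2 fold of -0.02 and a negative share of 54.4%. The mean level over the 39 genes was 7.05, 7.01 and 7.05 on the ERF6:IOE arrays and 7.24, 7.17 and 7.19 on the GFP:IOE arrays, so the lines did not overlap in it.

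At an unadjusted p under 0.05 in limma, 8 of the 39 genes (20.5%) had a lower level in ERF6:IOE and 0 a higher one. The shares over all rows were 3.22% lower and 4.8% higher. The 3 ERF6:IOE values lay below all 3 GFP:IOE values in 16 genes (41%), against 6.52% of all rows, and above them in 0, against 6.93% of all rows. In 27 genes (69.2%) the ERF6:IOE array was the lower one in 3 of 3 same-numbered repeats, against 17.4% of all rows. The genes share the same 6 arrays, so these counts do not come from independent measurements. The shares over all rows in this paragraph were not matched for level. The median standard error was 0.11 in the 39 genes and 0.13 in all rows.

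The arrays limit how large a difference could have gone unseen. The 95% interval of the log2 fold lay inside a 1.5-fold change in either direction for 34 of the 39 genes. For the other 5, CYCD1;1, CYCD3;3, KRP6, KRP7 and CDC20.2, it reached a 1.5-fold or larger reduction. The highest upper bound among the 39 was 0.38, so none of the intervals reached a 1.5-fold rise. These intervals are for single genes and are not adjusted for their number.

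**Figure D1:**
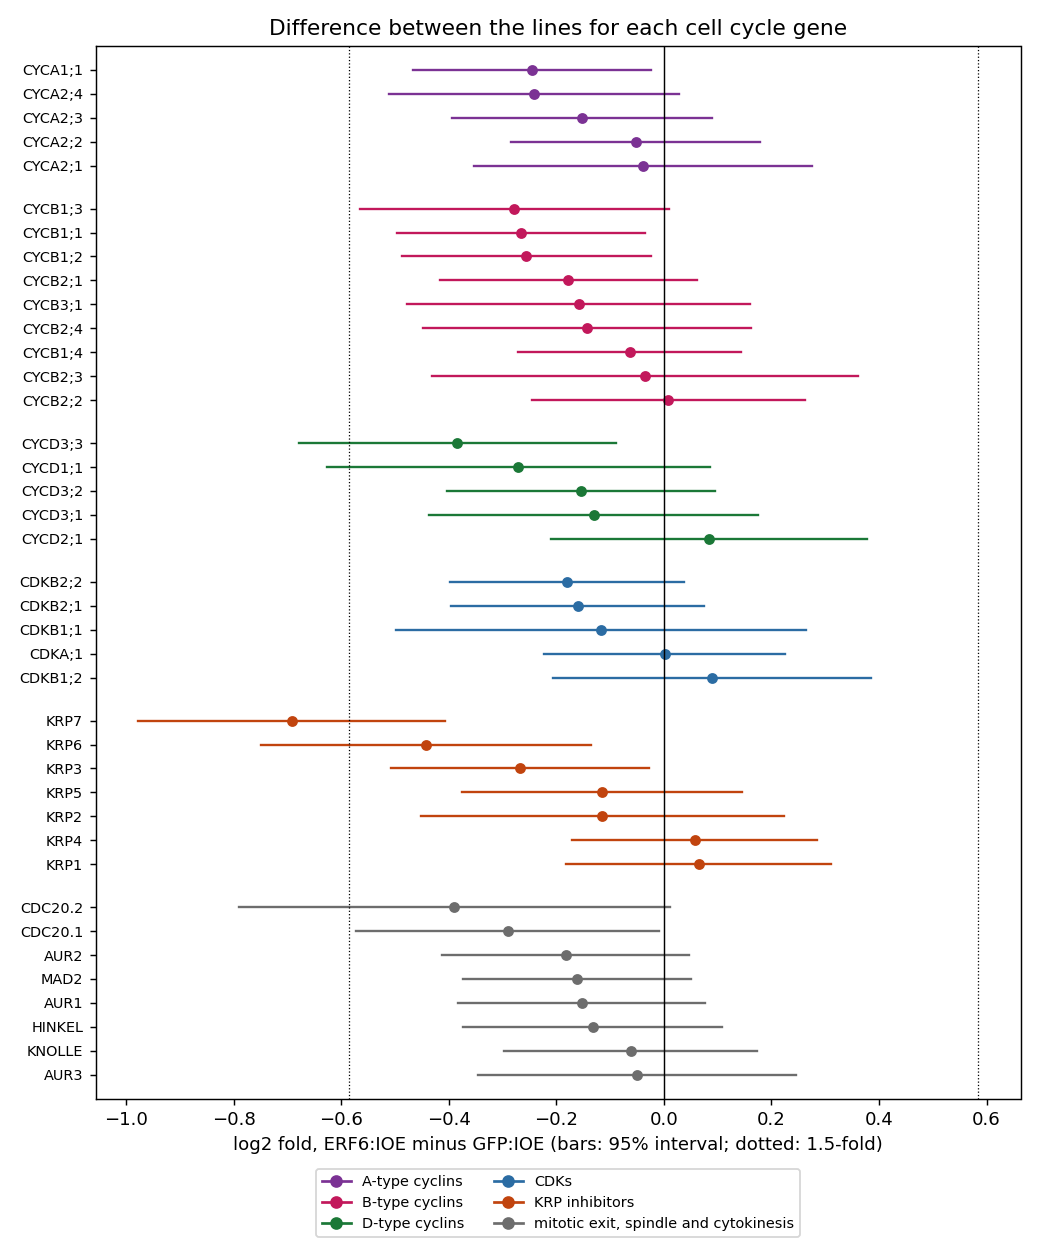
Log2 fold (horizontal axis, ERF6:IOE minus GFP:IOE) of each of the 39 genes, grouped by class, with its 95% limma interval as a bar and a 1.5-fold change in either direction as dotted lines. Points left of 0 are lower in ERF6:IOE, as for 33 genes, and KRP7 at -0.69 lies farthest from 0.

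The largest difference among the 39 belonged to an inhibitor gene, KRP7 (AT1G49620, named ICK5 in the name table). Its level was 6.69, 6.76 and 6.52 on the ERF6:IOE arrays and 7.52, 7.32 and 7.20 on the GFP:IOE arrays. Every ERF6:IOE value was below every GFP:IOE value. The log2 fold was -0.69 (SE 0.12, 95% interval -0.98 to -0.41), a level 1.62-fold lower in ERF6:IOE. The adjusted p was 0.0709 (limma), above the threshold of 0.05, so KRP7 did not pass. In the 3 repeats the difference was -0.83, -0.56 and -0.69. KRP7 passed in 3 of 18 alternative fits, with adjusted p-values of 0.0348 and 0.0232 (limma) among rows above the 30th and 50th percentile of level and 0.0294 (limma) with a variance trend. Whether KRP7 is called thus depends on the filter and the variance model.

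KRP6 (AT3G19150) had the next largest difference, with levels of 4.77, 4.70 and 4.84 in ERF6:IOE and 5.01, 5.17 and 5.45 in GFP:IOE. The lines did not overlap, and GFP:IOE repeat 3 was the highest array. Its log2 fold was -0.44 (SE 0.13) with an adjusted p of 0.345 (limma). KRP3 (AT5G48820) stood at 6.79, 6.78 and 6.71 in ERF6:IOE and at 7.16, 6.99 and 6.93 in GFP:IOE, again without overlap. Its log2 fold was -0.27 (SE 0.10, adjusted p 0.539, limma).

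The other 4 KRP genes had smaller differences and overlapping lines. KRP1, whose excess is known to slow division in leaves, had levels of 6.16, 6.24 and 6.33 in ERF6:IOE and 6.06, 6.20 and 6.28 in GFP:IOE. Its log2 fold was 0.07 (95% interval -0.18 to 0.31), positive in 3 of 3 repeats. KRP4 was at 0.06 (-0.17 to 0.28), KRP2 at -0.11 (-0.45 to 0.22) and KRP5 at -0.12 (-0.38 to 0.15). The KRP class therefore held the most negative log2 fold of the 39 and also 2 of the 6 positive ones, with a class median of -0.12. That class median was -0.20 without ERF6:IOE repeat 2 or without GFP:IOE repeat 1, and -0.18 without GFP:IOE repeat 3.

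D-type cyclins respond to hormones and sugar and promote entry into the cycle, and the CYCD3 genes keep leaf cells in division. CYCD3;3 (AT3G50070) had levels of 7.62, 7.49 and 7.43 in ERF6:IOE and 8.09, 7.71 and 7.90 in GFP:IOE. The lines did not overlap, with the GFP:IOE repeat 1 value the highest. The log2 fold was -0.38 (95% interval -0.68 to -0.09, adjusted p 0.416, limma). Its paralogs CYCD3;1 and CYCD3;2 had log2 folds of -0.13 and -0.15. In both of them the lines overlapped while ERF6:IOE was the lower array in 3 of 3 repeats, with differences of -0.13, -0.12 and -0.14 for CYCD3;1 and of -0.13, -0.13 and -0.20 for CYCD3;2.

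CYCD1;1 had a log2 fold of -0.27 with a wide interval (-0.63 to 0.08). Its level on GFP:IOE repeat 1 was 6.43, inside the ERF6:IOE range of 6.31 to 6.62, and the other two GFP:IOE arrays stood at 6.86 each. CYCD2;1 was the 1 D-type gene with a positive log2 fold, 0.08 (-0.21 to 0.38). The class median was -0.15 over 5 genes, and -0.10 without GFP:IOE repeat 3.

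The B-type cyclins mark the G2 phase and mitosis, and CYCB1;1 is the usual reporter of dividing cells in leaves. CYCB1;1 (AT4G37490) stood at 7.16, 7.18 and 7.23 in ERF6:IOE and at 7.55, 7.34 and 7.47 in GFP:IOE. The lines did not overlap. The log2 fold was -0.26 (SE 0.10) with an adjusted p of 0.516 (limma). CYCB1;2 had 8.67, 8.64 and 8.69 in ERF6:IOE and 8.99, 8.97 and 8.80 in GFP:IOE, a log2 fold of -0.26. CYCB1;3 had a log2 fold of -0.28, and CYCB1;4 one of -0.06 (-0.27 to 0.14). All 4 CYCB1 genes had lower, non-overlapping values in ERF6:IOE, against 6.52% of all rows, although for CYCB1;4 the gap was small, with 8.65, 8.59 and 8.56 in ERF6:IOE against 8.66, 8.67 and 8.67 in GFP:IOE.

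The CYCB2 genes differed less, with a median of -0.09 against -0.26 for the CYCB1 genes. This difference between the subfamilies was not tested, and the CYCB2 median was -0.0089 without ERF6:IOE repeat 2, -0.14 without ERF6:IOE repeat 3 and -0.15 without GFP:IOE repeat 2. CYCB2;1 had a log2 fold of -0.18 and CYCB2;4 of -0.14. CYCB2;2 was at 0.01 (-0.25 to 0.26) and CYCB2;3 at -0.03, with CYCB2;3 levels of 6.01 to 6.29 in ERF6:IOE and 5.90 to 6.49 in GFP:IOE. CYCB3;1 was at -0.16, and its GFP:IOE repeat 1 level of 6.25 was the highest of the 6 arrays.

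Among A-type cyclins, CYCA1;1 acts in mitosis and the CYCA2 genes act with CDKB1 in holding cells in the mitotic cycle. CYCA1;1 (AT1G44110) had very even levels of 7.82, 7.84 and 7.85 in ERF6:IOE, against 8.11, 8.16 and 7.98 in GFP:IOE. The lines did not overlap, and the log2 fold was -0.25 (SE 0.09, adjusted p 0.545, limma). CYCA2;4 stood at 6.55, 6.35 and 6.69 in ERF6:IOE and at 6.75, 6.73 and 6.84 in GFP:IOE, also without overlap, with a log2 fold of -0.24. CYCA2;3, which is linked to the onset of endoreduplication, was at -0.15 (-0.39 to 0.09). CYCA2;2 was at -0.05 and CYCA2;1 at -0.04. CYCA2;1 lay below the lower quartile of the array on 4 of 6 arrays. Its interval of -0.35 to 0.27 included 0, and its difference in repeat 3 was 0.17. Values near the floor are compressed, and the effect of this on its log2 fold was not tested.

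**Figure D2:**
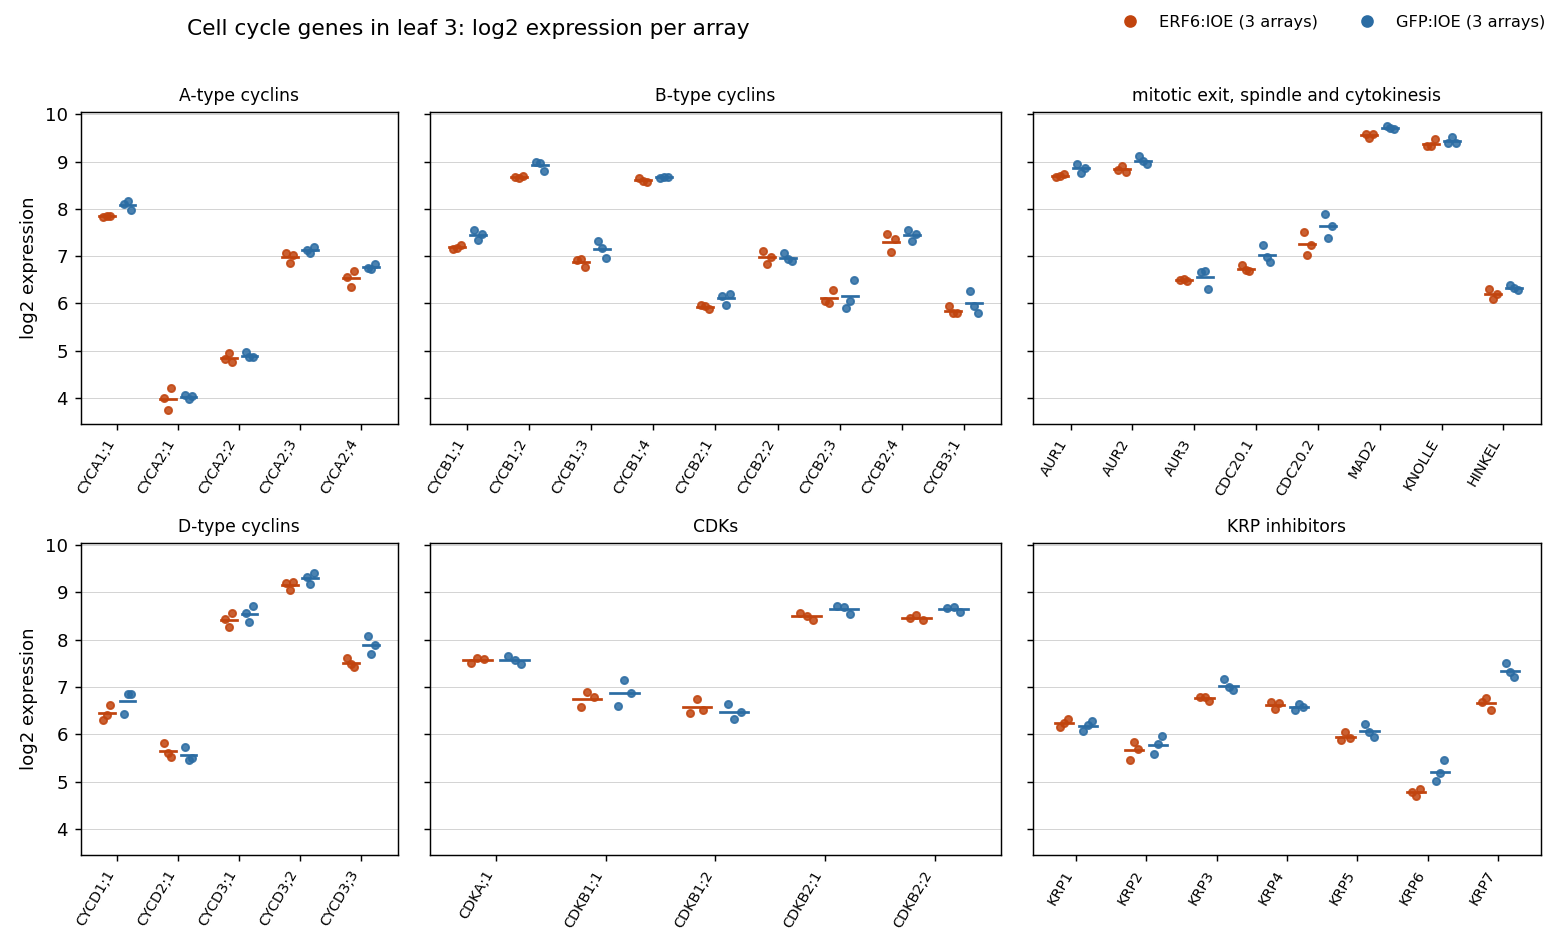
Log2 expression (vertical axis) of each gene on every array, in a panel per class, with ERF6:IOE to the left of GFP:IOE and a line at each mean. The lines are separate for KRP7, KRP6, CYCD3;3 and CYCB1;1, and coincide for CDKA;1 at a mean of 7.57 in both lines.

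CDKA;1 (AT3G48750) is the main CDK of the plant cycle, with a level that is known to vary little through it. It had levels of 7.50, 7.62 and 7.59 in ERF6:IOE and 7.65, 7.56 and 7.50 in GFP:IOE. The log2 fold was 0.00 (95% interval -0.22 to 0.23). The CDKB2 genes, which peak at G2 and mitosis, were both slightly below 0. CDKB2;2 had 8.47, 8.52 and 8.42 in ERF6:IOE and 8.67, 8.69 and 8.58 in GFP:IOE, with no overlap and a log2 fold of -0.18. CDKB2;1 was at -0.16 (-0.40 to 0.08), with lines that overlapped only at GFP:IOE repeat 3.

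The CDKB1 pair, expressed from S phase to mitosis, had log2 folds of opposite sign. CDKB1;1 was at -0.12 (-0.50 to 0.26) and CDKB1;2 at 0.09 (-0.21 to 0.38), and both intervals include 0. Repeat 2 decided much of both values. For CDKB1;2 the repeat differences were -0.17, 0.41 and 0.03, and for CDKB1;1 the GFP:IOE levels ran from 6.60 in repeat 1 to 7.15 in repeat 2. Without GFP:IOE repeat 2 the log2 fold of CDKB1;1 was 0.02, and without repeat 2 of both lines that of CDKB1;2 was -0.07.

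All 8 genes of the checkpoint, mitotic exit and cytokinesis had negative log2 folds, with a median of -0.16. CDC20.1 and CDC20.2 encode activators of the anaphase-promoting complex (APC/C), the ubiquitin ligase that ends mitosis. CDC20.1 (AT4G33270) stood at 6.81, 6.70 and 6.69 in ERF6:IOE and at 7.23, 6.97 and 6.87 in GFP:IOE, without overlap. Its log2 fold was -0.29 (SE 0.12, adjusted p 0.602, limma). CDC20.2 (AT4G33260) stood at 7.50, 7.03 and 7.23 in ERF6:IOE and at 7.89, 7.39 and 7.65 in GFP:IOE. Its lines overlapped, yet ERF6:IOE was below GFP:IOE by a near constant amount in the repeats (-0.39, -0.36 and -0.42), and the log2 fold was -0.39 (-0.79 to 0.01). With the repeat number as a block its unadjusted p was 0.00698 and its adjusted p 0.26 (limma), against 0.0552 and 0.647 without the block. The 2 genes are direct neighbours with 0 genes between them in the name table and are close in sequence, so signal shared between them cannot be separated.

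The Aurora kinases phosphorylate histone H3 and spindle proteins. AUR2 was at -0.18 and AUR1 at -0.15, both without overlap, with AUR2 levels of 8.82, 8.91 and 8.78 in ERF6:IOE against 9.11, 9.00 and 8.94 in GFP:IOE. These paralogs are also close in sequence. AUR3, which acts at centromeres, was at -0.05 with GFP:IOE repeat 3 (6.30) the lowest array. MAD2, of the spindle checkpoint, had 9.59, 9.49 and 9.58 in ERF6:IOE and 9.74, 9.70 and 9.70 in GFP:IOE, a log2 fold of -0.16 without overlap.

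KNOLLE, the syntaxin of the cell plate, had levels of 9.32, 9.32 and 9.48 in ERF6:IOE and 9.39, 9.53 and 9.38 in GFP:IOE. The lines overlapped, and the log2 fold was -0.06 (-0.30 to 0.17). HINKEL, a kinesin that lets the cell plate grow outward, was at -0.13 (-0.37 to 0.11).

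The 39 genes varied little among the arrays of a line, with a median SD of 0.089 in ERF6:IOE and 0.115 in GFP:IOE, and none spanned more than 1 log2 unit within a line. The highest of the 6 values was on GFP:IOE repeat 1 in 18 genes, on repeat 3 of that line in 9 and on repeat 2 in 6. ERF6:IOE arrays held the highest value in the other 6 genes. The lowest value was on an ERF6:IOE array in 32 genes, split as 8, 12 and 12 over repeats 1 to 3. GFP:IOE repeat 1 was highest in 6 of the 8 checkpoint, exit and cytokinesis genes and in 5 of the 9 B-type cyclins. Without that array the median over the 39 genes was -0.15 and 32 had a negative log2 fold.

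The log2 folds average the differences within the same-numbered repeats, so the values by repeat are not further evidence. The median difference over the 39 genes was -0.16 in repeat 1, -0.17 in repeat 2 and -0.13 in repeat 3, and 34, 33 and 30 genes were lower in ERF6:IOE. Over all 30237 rows the medians were -0.014, -0.002 and -0.018, and 15842, 15221 and 16028 rows were lower. Each KRP and cyclin class had a negative median in every repeat, as did the CDKs (-0.15, -0.17 and -0.08).

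**Figure D3:**
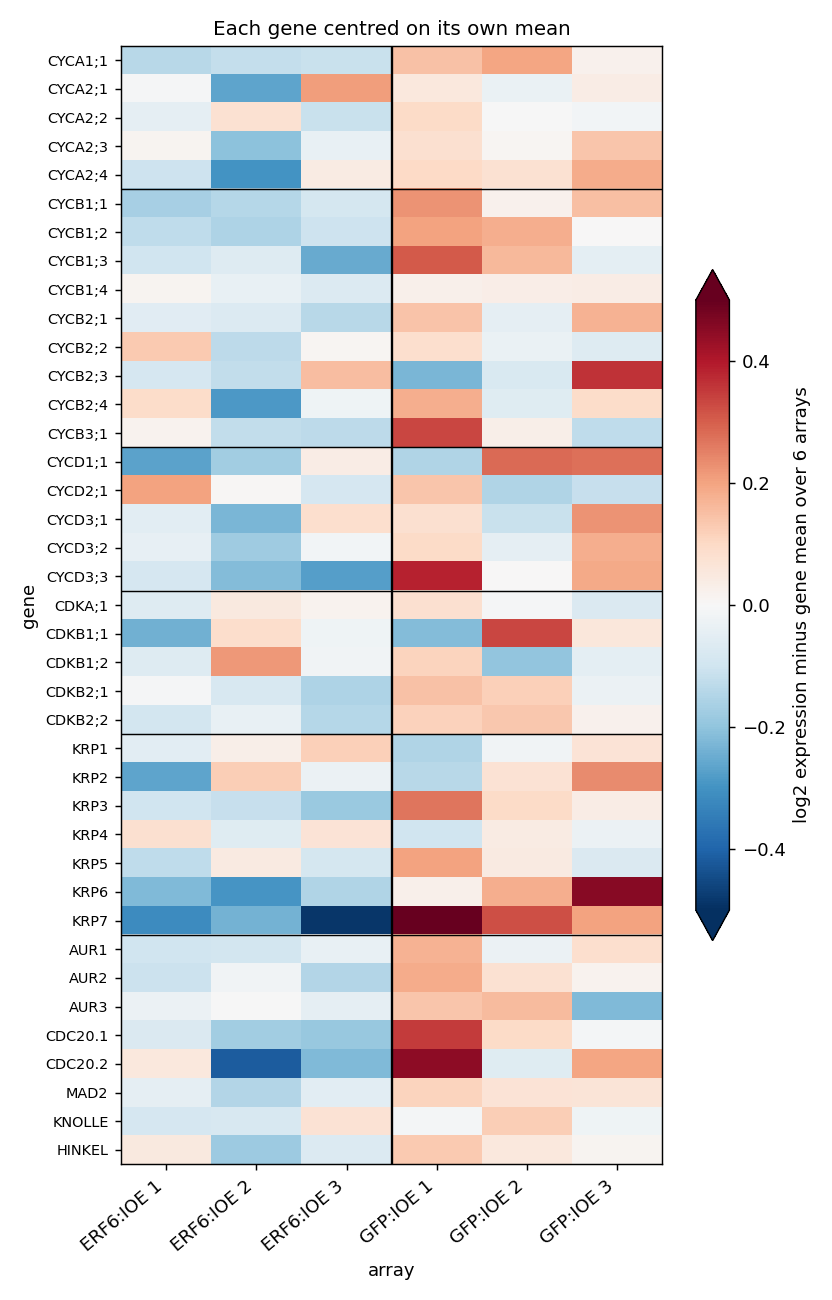
Level of each gene on each array after subtracting the gene's mean over the 6 arrays (colour, log2 units), with the ERF6:IOE arrays left of the GFP:IOE arrays and classes divided by lines. Blue is below the gene's mean and prevails on the ERF6:IOE side, and the strongest contrast is in the KRP7 row.

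Further genes of the same machinery, from lists that do not include the 39, were read beside them. No member of these lists passed the test in either direction. Of 20 genes of the spindle, chromosomes and cell plate, 19 had a negative log2 fold, with a median of -0.12. TPX2, a spindle assembly factor, had 5.52, 5.57 and 5.59 in ERF6:IOE and 5.85, 6.00 and 5.84 in GFP:IOE, a log2 fold of -0.33 (adjusted p 0.318, limma). PANS1, which protects sister chromatid cohesion, was at -0.21.

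Of 10 other A-type and D-type cyclins, 6 were below 0 and their median was -0.05. CYCA3;1, an S-phase cyclin, had 6.31, 6.27 and 6.31 in ERF6:IOE and 6.66, 6.90 and 6.67 in GFP:IOE. Its log2 fold of -0.45 (SE 0.10, adjusted p 0.196, limma) was larger in size than that of any of the 19 cyclins in the set. CYCD4;1, which acts in stomatal lineage divisions of the hypocotyl, was at -0.34.

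Of 8 CDK-activating kinases, adaptors and the CDK-inhibiting kinase WEE1, 6 were negative with a median of -0.09. WEE1 was at -0.36 and CDKD;1 at -0.25. Of 11 MYB3R, E2F, DP and RBR1 genes, which include the transcription factors that control cell cycle genes, 9 were negative with a median of -0.05. DEL1, a repressor of the onset of endoreduplication, was at -0.41 (adjusted p 0.301, limma) and E2FA at -0.22. Of 16 APC/C genes, 10 were negative with a median of -0.07. APC5 was at -0.24 and CCS52B, an APC/C activator of mitotic cells, at -0.23. CDC27A, 1 of the 6 positive genes, had the log2 fold of largest size in this list, 0.27 (-0.05 to 0.59).

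Of 10 DNA replication markers, 9 were negative with a median of -0.24. CDT1A, a licensing factor gene, was at -0.42 (adjusted p 0.24, limma) and TSO2, a ribonucleotide reductase gene, at -0.34. ORC1A was the 1 positive gene, at 0.31 (-0.03 to 0.65), and lay below the lower quartile on 4 arrays. The log2 of their summed unlogged values, a measure led by the genes of highest level, lay between 11.5 and 11.6 on the ERF6:IOE arrays and between 11.7 and 11.9 on the GFP:IOE arrays.

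**Figure D4:**
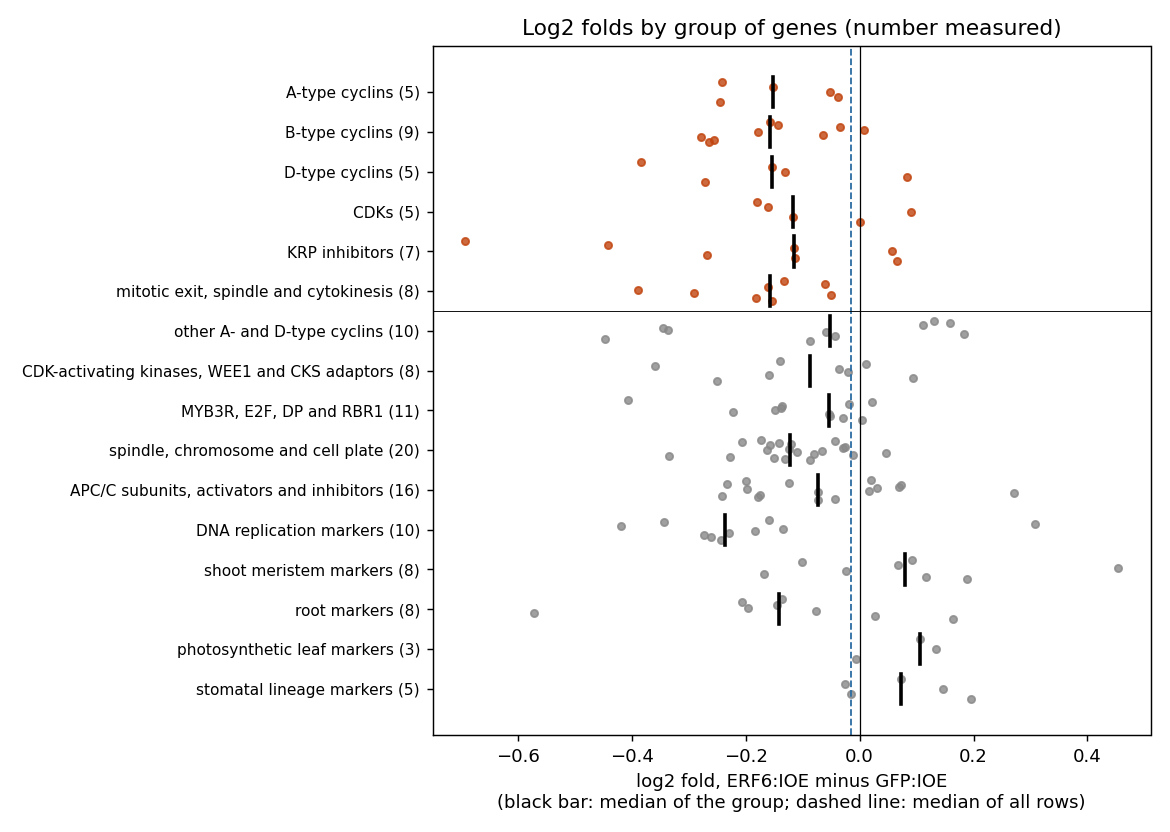
Log2 fold (horizontal axis, ERF6:IOE minus GFP:IOE) of every measured gene of the 6 classes (red) and of 10 further lists (grey), with each median as a black bar and the median of all rows as a dashed line. All 6 class medians lie left of the dashed line, and those of the shoot meristem, photosynthetic leaf and stomatal lineage markers lie right of it.

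Markers of other tissues were set beside these values, and no marker passed the test. Of 8 root markers, 6 had a negative log2 fold, with a median of -0.14. The log2 of their summed unlogged values was 7.40 to 7.52 on the ERF6:IOE arrays and 7.60 to 7.62 on the GFP:IOE arrays, so it moved with the line. WOX5 was at -0.57 (adjusted p 0.344, limma), with 2 of 6 arrays below the lower quartile, and EXPA18 at -0.21. None of the 8 was below the lower quartile on all arrays, but PLT1 was on 3 arrays and EXPA7 on 2. The mean level of the 8 was 4.36 to 4.57 on the arrays, under the array medians of 4.85 to 4.90. The summed value is thus made of low signals, and the part of these genes in the results was not tested.

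Of 8 shoot meristem markers, 3 were negative and the median was 0.08. The log2 of their summed unlogged values was 7.47 to 7.69 in ERF6:IOE and 7.45 to 7.61 in GFP:IOE, which overlap. CLV3, given by the row with the highest mean level of its 3, was at 0.45 (-0.13 to 1.04) and KNAT2 at -0.17. CLV3 levels were low, 4.90, 4.28 and 4.28 in ERF6:IOE and 3.59, 4.07 and 4.44 in GFP:IOE. Its repeat differences were 1.31, 0.21 and -0.15, so repeat 1 made most of the value. KNAT1 of this list lay below the lower quartile on 5 arrays. Of 5 stomatal lineage markers, 2 were negative with a median of 0.07. SPCH, the factor that starts the lineage, had 7.49, 7.42 and 7.34 in ERF6:IOE and 7.28, 7.20 and 7.19 in GFP:IOE, a log2 fold of 0.20 (adjusted p 0.689, limma), and FAMA was at 0.15. The 3 photosynthetic leaf markers measured, of 8 listed, had a median of 0.11, with RCA at 0.11, LHCB2.1 at 0.13 and RBCS1A at -0.007. In repeat 2 all 3 were lower in ERF6:IOE. RBCS1A equalled the maximum of every array, so its log2 fold is that of a value at the ceiling.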

How the data were processed

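The values are log2 expression for 6 arrays, as deposited in a single table. RMA, limma and genome build TAIR9 are named in the submitters' processing notes, without versions or settings. RMA equalises array distributions and compresses values near the floor. Array medians lay between 4.85 and 4.90 and lower quartiles between 4.03 and 4.08. Precision is limited by there being 3 arrays a line, and detection was not assessed.

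Lines were compared with limma 3.58.1 in R 4.3.3 (lmFit and eBayes, two-sided, no level filter, Benjamini-Hochberg adjustment over 30237 rows). SE is the moderated standard error. The procedure was tested on simulated data. All 39 genes matched a name table of assembly TAIR10.1, which is not the build of the table, so coordinates are left out. Of 104 listed genes in 10 further lists, 99 had a row, and a gene with several is given by the row of highest mean level. The named genes are all 39, ERF6, RBCS1A as a tissue check, and, from every list, the 2 genes whose moderated t was farthest from 0. Outside this rule, PLT1, EXPA7 and KNAT1 are named for their low levels. CDC27A and ORC1A are named as the most positive log2 folds of their lists. The genes and lists were chosen with earlier results of these data known.

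Alternatives were the repeat number as a block, level filters, a variance trend, array weights, averaged rows, 3 further normalizations (quantile again, median centring, cyclic loess) and leaving out each repeat or array. Pairing was checked by the correlation of same-numbered arrays' deviations from their line means, which was 0.19, 0.08 and 0.21 over all rows. Pairing required more than 0.1 in every repeat, which repeat 2 missed, so the repeats were not treated as pairs. Different-numbered arrays correlated at -0.22 to 0.03, below each same-numbered value. Deviations from a line mean cancel out over the arrays of the line, so positive same-numbered values push the different-numbered ones down. The different-numbered values are therefore no separate evidence on pairing. The check does not show that the repeats were unrelated. The main p-values and intervals take no account of effects shared within a repeat.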

Additional observations from a re-analysis of the deposited data

How the results depend on the processing

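None of the 39 genes passed except KRP7, which made 1 gene among the rows above the 30th percentile, 1 above the median of level and 1 with a variance trend. KRP7 was negative in 18 of 18 alternatives (-0.765 to -0.61, limma adjusted p 0.0232 to 0.407). With the repeat number as a replicate block, 0 of the 39 passed (lowest adjusted p 0.0979, limma) 9 had an unadjusted p under 0.05, against 8 without the block, and 5 rows of the whole table were lower. Over the 39 genes alone, same-numbered arrays correlated in their deviations at 0.64, 0.39 and 0.64, and different-numbered arrays at -0.63 to 0.09. Here too the deviations cancel out within a line, so the different-numbered values are no separate evidence. The 30th-percentile filter gave 14 lower rows over the whole table and the median filter 22, on fewer rows tested. With arrays left out, 45 to 126 rows were higher and 1 to 6 lower, 0 of the 39 passed, and 32 to 34 of the 39 were negative. Between 2 and 8 of the 39 then had an unadjusted p under 0.05 (limma). That count was 11 after quantile normalization was repeated and 13 with a variance trend. Left-out arrays moved the median of all 39 between -0.18 and -0.14, of the CDKs between -0.16 and 0.00 (-0.002 without GFP:IOE repeat 2, -0.03 without ERF6:IOE repeat 1), and of the KRP inhibitors between -0.20 and -0.0803. Of 700 values of single genes under alternatives, 27 changed sign, all of 9 genes within 0.12 of 0 in the main comparison. CYCB2;2 was at -0.0214 and CDKA;1 at -0.0356 after quantile normalization was repeated, and CYCB2;2 was at -0.0012 with array weights. With arrays left out, log2 folds ran from -0.0561 to 0.0753 for CYCB2;2, -0.0441 to 0.0745 for CDKA;1, -0.16 to 0.14 for CYCB2;3, -0.15 to 0.0825 for CYCA2;1, -0.17 to 0.0172 for AUR3, -0.25 to 0.0214 for CDKB1;1, -0.0726 to 0.22 for CDKB1;2, -0.0024 to 0.14 for KRP4 and -0.14 to 0.0093 for KNOLLE. The cause of these changes was not tested.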
